A study of Homo sapiens with 4 samples.

Results

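The copines are calcium-dependent, phospholipid-binding proteins, and 7 of their genes were examined, CPNE1, CPNE2, CPNE3, CPNE4, CPNE5, CPNE7 and CPNE8. They were taken from a count table of 18917 genes by their gene symbol. The family was chosen because CPNE7 was among the largest falls in the comparison of knockout (KO) with wild-type (WT) cells, and because CPNE2 and CPNE7 both lie on chromosome 16. The KO against WT values of CPNE7 therefore come from the contrast that chose it, and are given as a description, with no p-value. The other 6 members were taken by name, and their p-values come from the fit across all genes.

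RNA was sequenced from 4 libraries of HEK293 cells, an established line derived from human embryonic kidney that the study's methods call HEK-293T. WT cells and cells with a knockout of THUMPD1 gave 2 libraries each, named here WT 1, WT 2, KO 1 and KO 2. All were grown in DMEM with 10% fetal bovine serum and 2 mM glutamine, with no further treatment in the labels. THUMPD1 is the adaptor protein that lets the acetyltransferase NAT10 place N4-acetylcytidine on serine and leucine transfer RNAs. The KO cells were made with Cas9 and a pair of guides and then sorted as single cells. How many clones the 2 KO libraries stand for is not given in the sources used here, so genotype and clone cannot be told apart. Nothing in the labels says that the libraries of a genotype came from separate cultures, so p-values measure only the spread between these samples, which may be technical.

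A copine carries a pair of C2 domains near its start, which bind membrane phospholipids when calcium rises, and an A domain near its end, related to that of von Willebrand factor, which binds other proteins. Calcium moves copines from the cytosol to the plasma membrane and to internal membranes. The family is old and is found in plants and protists as well as animals, and several members are known best from the nervous system.

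Library totals ran from 7875722 to 11362363 counts, so that 3 counts, taken as the floor of detection, were worth 0.259 to 0.391 CPM, the unit of depth-scaled counts. THUMPD1, the gene named in the labels as knocked out, had 356 and 468 counts in WT 1 and WT 2 and 71 and 58 in KO 1 and KO 2. Its log2 fold change was -2.93 (SE 0.17; edgeR quasi-likelihood adjusted p = 1.26e-12). Markers of embryonic kidney were present in every library, with SALL1 at 76.5 to 91.9 CPM, EYA1 at 11.4 to 15 CPM, PAX2 at 6.45 to 7.94 CPM and the gene WT1 at 5.26 to 5.82 CPM, while PAX8 was at 0 to 0.545 CPM. LHX1 was at 0.782 and 0.545 CPM in WT cells and at 3.19 and 2.53 CPM in KO cells, and rose by 2.12 on the log2 scale (SE 0.61; edgeR adjusted p = 0.0138), and its part in the results was not tested. Markers of leukocytes, hepatocytes, endothelium and red cells (PTPRC, ALB, CDH5 and HBB) stayed at or below 0.651 CPM. The fibroblast marker COL1A1 was at 18.5 to 25.3 CPM.

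CPNE7 was the copine that differed most between the genotypes. It had 78 and 106 counts in WT 1 and WT 2 and 7 and 6 counts in KO 1 and KO 2. Scaled to depth by the TMM method, these were 10.2 and 9.64 CPM in WT cells and 0.604 and 0.563 CPM in KO cells. Both KO libraries were far below both WT libraries, in the contrast that chose CPNE7. The libraries of a genotype lay close together, but 7 and 6 counts in 2 KO libraries cannot show how precise that level is. The means were 9.9 ± 0.372 CPM (SD, n = 2) in WT and 0.583 ± 0.0291 CPM (SD, n = 2) in KO. The fitted log2 fold change was -4.05 (SE 0.42), a level 16.6-fold lower in KO. From the summed counts, 184 in WT and 13 in KO, the level was 16.9-fold lower, with an exact 95% interval from 9.62 to 32.3 that covers counting error only. The KO counts stayed above the floor of 3 counts. Among all 13128 genes that passed the filter of 1 CPM in 2 libraries, CPNE7 held place 6 from the lowest fold change, and among the 11112 genes whose mean reached 5 CPM it held place 3. CPNE7 passed that filter through the WT libraries alone. In bulk RNA, fewer cells that hold a transcript and less of it per cell cannot be told apart.

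**Figure D1:**
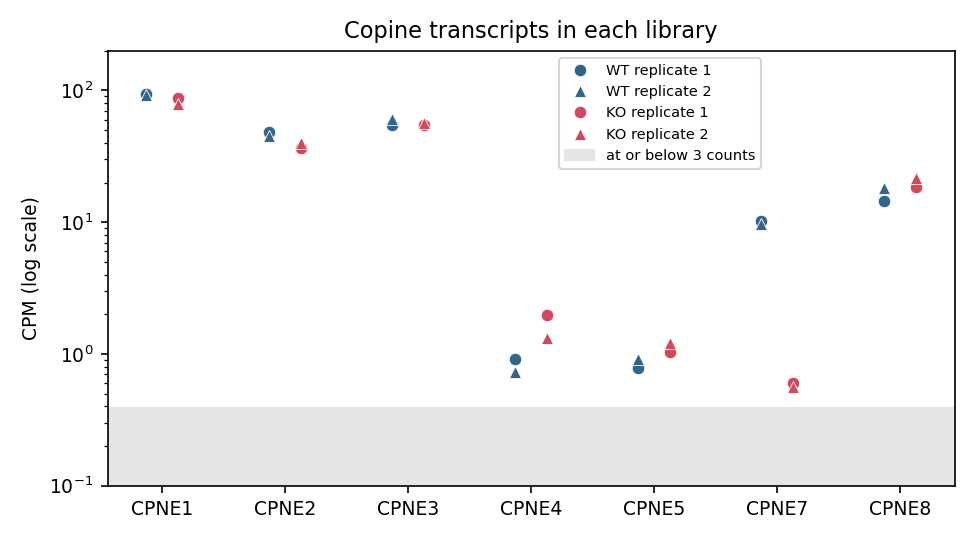
CPM of each of the 7 copines in the 4 libraries, on a log axis, with each library as a point and the grey band at or below 3 counts in the shallowest library. CPNE7 goes from 10.2 and 9.64 CPM in WT to 0.604 and 0.563 CPM in KO, while the largest fitted difference among the other members is the 2.03-fold higher level of CPNE4.

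The 3 most abundant copines by counts, CPNE1, CPNE3 and CPNE2, differed little. CPNE1, which is known to bind phospholipids and to act with several signalling proteins, was at 94.1 and 92 CPM in WT and at 88.2 and 79 CPM in KO. Both KO values were below both WT values. The log2 fold change was -0.15 (SE 0.08, interval of 1.96 SE from -0.32 to 0.01), with an edgeR adjusted p of 0.21. The counts of CPNE1 are uncertain. RBM12 shares 575 of its 6702 exonic bases with CPNE1 on the same strand, and was listed at 0 in all 4 libraries. How reads of RBM12 were assigned, in the shared bases or elsewhere, is not given in the sources used here.

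CPNE2 was at 48.5 and 45.1 CPM in WT and at 36.5 and 40.2 CPM in KO. The genotypes did not overlap, with the KO libraries lower. The log2 fold change was -0.28 (SE 0.11, interval from -0.51 to -0.06), and the edgeR adjusted p of 0.0786 missed the threshold of 0.05. CPNE3, a copine known to bind the receptor ERBB2 and to act in cell migration, was at 54.3 and 60.3 CPM in WT and at 55.1 and 56.9 CPM in KO. Its genotypes overlapped, and its log2 fold change was -0.04 (SE 0.10, interval from -0.23 to 0.16; edgeR adjusted p = 0.832).

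CPNE8 stood at 14.5 and 18.1 CPM in WT and at 18.6 and 21.7 CPM in KO. WT 2 and KO 1 lay next to each other, without an overlap of the genotypes. The log2 fold change of CPNE8 was 0.29 (SE 0.17, interval from -0.04 to 0.63; edgeR adjusted p = 0.238).

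CPNE4 and CPNE5 were near the limit of detection. CPNE4 had 7 and 8 counts in WT and 23 and 14 in KO, or 0.912, 0.727, 1.98 and 1.31 CPM. The KO libraries were higher, with a log2 fold change of 1.02 and a wide error (SE 0.66, interval from -0.28 to 2.32; edgeR adjusted p = 0.296). CPNE5 had 6 and 10 counts in WT and 12 and 13 in KO, or 0.782, 0.909, 1.04 and 1.22 CPM. Its log2 fold change was 0.40 (SE 0.70, interval from -0.98 to 1.77; edgeR adjusted p = 0.737). Both genes passed the filter through the KO libraries alone. The intervals of both genes include 0 and differences of several-fold.

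Of the 7 members, all passed the filter, and 1 met the threshold used for all genes, an adjusted p under 0.05 in edgeR. It was CPNE7, for which the choice of the family fixes this. In the same fit 2748 of 13128 genes were called, or 20.9%, with 1154 higher and 1594 lower in KO. Scaling by library size alone turned that split to 2078 higher and 1160 lower. Since CPNE7 was chosen from this contrast, nothing is read from the member count. The genotypes did not overlap in CPM for 6 of the 7 members, beside 60.4% of all genes tested. The median log2 fold change was -0.04 over the members and 0.01 over all genes tested. The members include genes that passed the filter through 1 genotype only, so these summaries are descriptions.

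**Figure D2:**
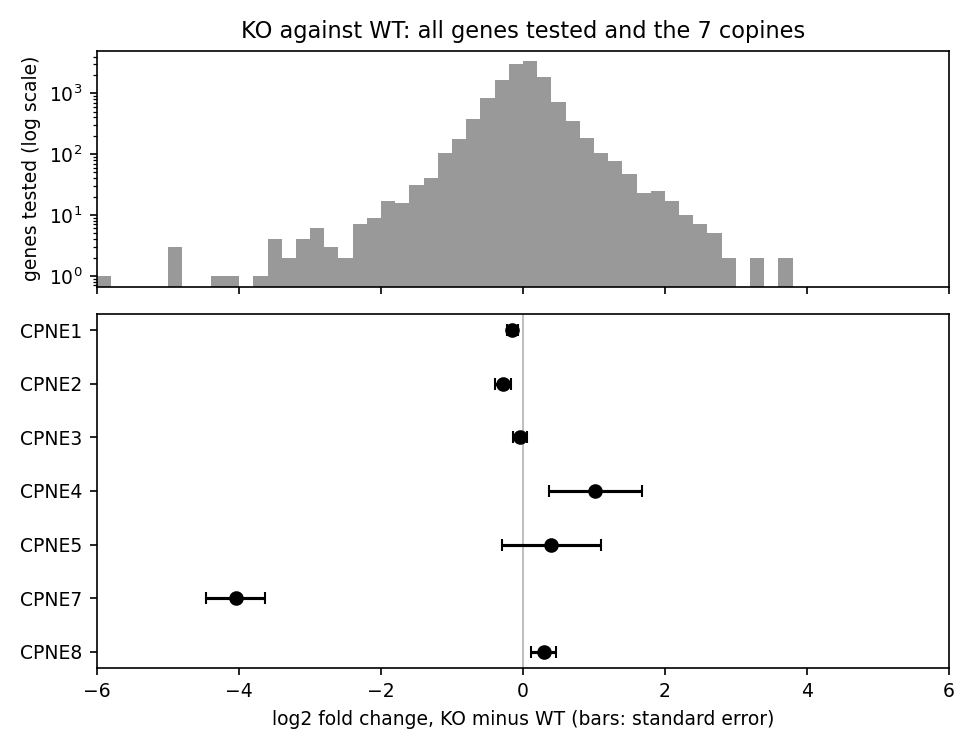
Log2 fold change of KO over WT for the 7 copines, with bars of 1 SE, under a histogram of all 13128 genes tested whose count axis is logarithmic and whose end bins hold values beyond 6. CPNE7 at -4.05 lies in the lower tail, while the other members lie between -0.28 and 1.02.

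The count table also held CPNE6 and CPNE9, which are not members and did not pass the filter. CPNE6, known as a brain copine, had 1 and 2 counts in WT and 0 in both KO libraries, all at or under the floor. CPNE9 had 1 count in each WT library and 7 and 12 counts in KO. The ratio of its summed counts, 19 in KO to 2 in WT, scaled to depth, was 7.97, with an exact 95% counting interval from 1.92 to 70.6. That interval leaves out the spread between libraries and is no test of the genotypes.

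Levels of different genes were compared per kilobase of the transcript with the longest coding sequence. The order, sums and shares that follow all carry the uncertainty in the counts of CPNE1 given above. In WT cells the order was CPNE1 at 47.4 ± 0.748 CPM per kb, CPNE2 at 18 ± 0.919, CPNE3 at 11.8 ± 0.865, CPNE8 at 4.74 ± 0.748, CPNE7 at 3.73 ± 0.14, CPNE5 at 0.451 ± 0.048 and CPNE4 at 0.23 ± 0.0367 (SD, n = 2 for each). No neighbours in this order overlapped between their WT libraries, although CPNE8 at 4.22 and 5.27 CPM per kb and CPNE7 at 3.82 and 3.63 were close. In KO cells CPNE7 was last, at 0.22 ± 0.011 CPM per kb (SD, n = 2). CPNE4 at 0.557 and 0.369 CPM per kb and CPNE5 at 0.552 and 0.65 overlapped there. With the longest transcript of each gene in place of the one used, CPNE2 came to 11.1 CPM per kb in KO and CPNE3 to 11.5, so that the order of this pair turned.

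The sum of the 7 copines was 86.5 and 86.2 CPM per kb in WT and 77.1 and 75 in KO. Both KO sums were lower than both WT sums. The difference of the means, -10.3 CPM per kb, was made of -4.82 from CPNE1, -3.51 from CPNE7, -3.23 from CPNE2, -0.259 from CPNE3, 1.13 from CPNE8, 0.233 from CPNE4 and 0.15 from CPNE5. The order of these parts depended on the scale. With library size alone, CPNE1 was at 46.1 CPM per kb in WT and 43.9 in KO and CPNE7 at 3.62 and 0.226, so that the part of CPNE7 was then larger than that of CPNE1. On that scale the sums were 83.9 ± 0.568 in WT and 78.3 ± 2.52 CPM per kb in KO (SD, n = 2).

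**Figure D3:**
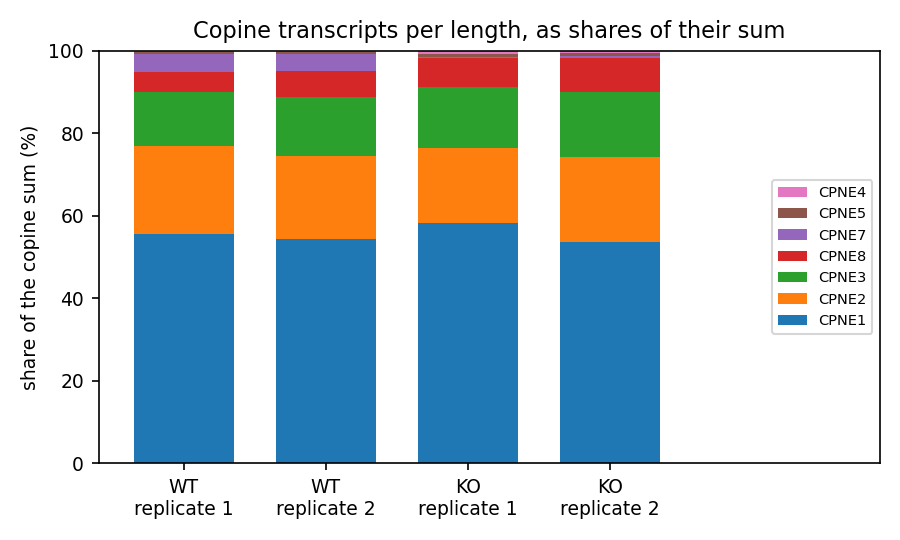
Share of each copine in the sum of the 7, in percent of CPM per kb, as stacked bars for the 4 libraries. CPNE1 holds 53.7 to 58.3% in every library, and CPNE7 goes from 4.42 and 4.21% in WT to 0.295 and 0.282% in KO. The counts of CPNE1, and so all shares, are uncertain because RBM12 was listed at 0.

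CPNE7 held 4.42 and 4.21% of the copine sum in WT and 0.295 and 0.282% in KO. CPNE8 held 4.87 and 6.11% in WT and 7.04 and 8.42% in KO. CPNE1 held 53.7 to 58.3% across the 4 libraries, with no order by genotype.

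The family members differ in sequence by far more than a few bases. Over the coding sequences of GENCODE 44, the most alike pair was CPNE5 with CPNE8, at 81% identical bases. CPNE4 with CPNE7 came to 69%, CPNE1 with CPNE3 to 67.2% and CPNE2 with CPNE7 to 54.1%. CPNE2 and CPNE7, the pair on chromosome 16, nevertheless shared the longest exact run of any pair, 35 bases, where no other pair passed 23. The stretch is shown here because reads lying wholly inside it could not be assigned to 1 of the genes. It lies at bases 1730 to 1789 of CPNE7 transcript ENST00000268720.9 and at bases 1618 to 1677 of CPNE2 transcript ENST00000290776.13, inside both coding sequences. Capitals mark the shared run, and 49 of the 60 bases are equal.
CPNE7: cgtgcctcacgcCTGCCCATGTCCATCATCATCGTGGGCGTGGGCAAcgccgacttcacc
CPNE2: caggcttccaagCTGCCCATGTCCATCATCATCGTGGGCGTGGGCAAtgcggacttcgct

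CPNE7 lies on the plus strand of chromosome 16 of GRCh38, at chr16:89575758-89597246, and CPNE2 on the same strand at chr16:57092583-57148369. THUMPD1, the gene knocked out, lies on the same chromosome, on the minus strand at chr16:20702816-20742084. Most genes of chromosome 16 were somewhat lower in KO. Leaving out CPNE2, the median log2 fold change of the 572 tested genes there was -0.44. Of the 572, 290 were called lower and 5 higher, beside 20.9% of all genes in either direction. The chromosome medians of the other members were 0.01 for CPNE1 and CPNE8, 0.05 for CPNE3 and 0.06 for CPNE4 and CPNE5. Relative to the chromosome 16 median, CPNE7 was at -3.61, and 0 of the other 572 genes were lower. The choice of CPNE7 for its fall in this contrast makes such a low place likely, so its place is a description only. CPNE2 was at 0.16 relative to the same median, and 381 of the 572 other genes, or 66.6%, had a lower log2 fold change than CPNE2. The part of the chromosome-wide difference in the values of CPNE2 and CPNE7 was not tested. Whether that difference is linked to the editing of THUMPD1 was not tested either.

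Of the 4 tested genes on each side of CPNE7 in the order of start positions, 1 was called, beside 20.9% of all genes. RPL13, a protein of the large ribosomal subunit whose gene ends 11.2 kb before CPNE7, was at 752 and 763 CPM in WT and at 800 and 772 CPM in KO, with a log2 fold change of 0.05 (SE 0.06; edgeR adjusted p = 0.547). SPG7, a mitochondrial protease, stood at -0.05 and ANKRD11, a chromatin regulator, at -0.12, and neither was called. On the other side, CHMP1A, a subunit of the membrane-remodelling ESCRT-III complex 43.6 kb away, was at 70.4 and 66.8 CPM in WT and at 43.9 and 44 CPM in KO. CHMP1A fell by 0.64 on the log2 scale (SE 0.10; edgeR adjusted p = 4.04e-05). ZNF778 at 0.25, C16orf55 at 0.03, CDK10 at -0.12 and SPATA2L at -0.35 were not called. Of the 31 tested genes within 1 Mb of CPNE7, 12 were called lower and 0 higher in edgeR, with a median of -0.33. Of all genes, 20.9% were called in either direction. On chromosome 16 as a whole, 289 of the other 572 tested genes were called lower and 5 higher, with a median of -0.44. None of the 31 was higher at an unadjusted p under 0.05 either, and DESeq2 called 10 lower and 0 higher, limma-voom 11 lower and 0 higher. The lowest of the 31 was CYBA, a subunit of the phagocyte NADPH oxidase, at -3.41, and the highest was SNAI3 at 0.37. CYBA and SNAI3 were chosen after their values were seen.

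**Figure D4:**
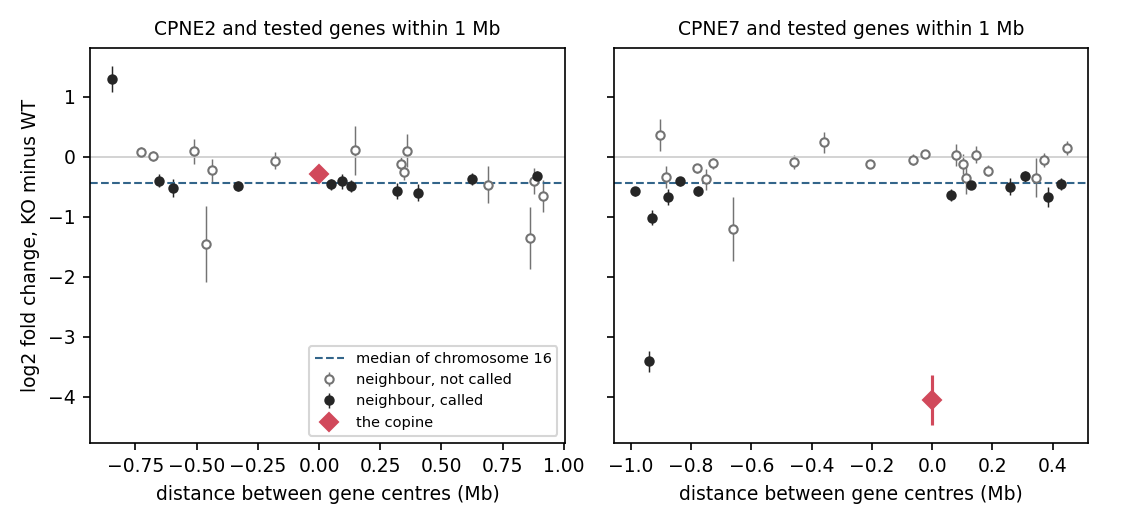
Log2 fold change of KO over WT for tested genes within 1 Mb of CPNE7 and of CPNE2, against the distance between gene centres in Mb, with bars of 1 SE, filled points for genes called and a dashed line at the chromosome 16 median of -0.44. CPNE7 at -4.05 stands below its 31 neighbours, whose lowest is -3.41, and CPNE2 at -0.28 lies among its 25 neighbours, whose median is -0.39. CPNE7 was chosen for its fall in this contrast, so its low place is a description only.

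Of the 4 tested genes on each side of CPNE2 in the same order, 4 in all were called, beside 20.9% of all genes. These 4 were lower in KO. FAM192A, 4.1 kb away, was at 88.2 and 89.6 CPM in WT and 65.8 and 63.7 CPM in KO, and fell by 0.46 on the log2 scale (SE 0.09; edgeR adjusted p = 0.000381). NUP93, a nuclear pore protein, fell by 0.48 (adjusted p = 0.000234 in edgeR), as did ARL2BP (edgeR adjusted p = 0.000972). RSPRY1 fell by 0.41 (edgeR adjusted p = 0.0235), a call lost with library size alone (adjusted p = 0.0672 in edgeR), in DESeq2 (adjusted p = 0.0933), without WT 2 (-0.36) and without KO 1 (-0.34). HERPUD1 at -0.06, MT1X at -0.23, MT1F at -1.45 and PLLP at 0.11 were not called. MT1F and MT1X belong to the metallothionein cluster, whose near-identical copies may share reads. Of the 25 tested genes within 1 Mb of CPNE2, 10 were called lower and 1 higher, beside 20.9% of all genes in either direction. On chromosome 16 as a whole, 290 of the 572 tested genes other than CPNE2 were called lower and 5 higher.

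Of the tested genes next to the other 5 members, 1 on each side, 2 of 10 were called, beside 20.9% of all genes. CDKN1A, the cell cycle inhibitor p21 next to CPNE5, was at 20.7 and 22.8 CPM in WT and at 32.3 and 42.5 CPM in KO, and rose by 0.77 (SE 0.15; edgeR adjusted p = 0.000397). ALG10B next to CPNE8 rose by 0.46 (SE 0.16; edgeR adjusted p = 0.0459), a call lost in limma-voom (adjusted p = 0.0592), in DESeq2 (adjusted p = 0.157), without WT 1 (0.28) and without KO 1 (0.35). SPAG4 at -0.07 and NFS1 at -0.26 beside CPNE1, RMDN1 at 0.04 and CNGB3 at -0.10 beside CPNE3, MRPL3 at 0.16 and ACPP at 1.38 beside CPNE4, PPIL1 at -0.14 beside CPNE5 and KIF21A at -0.01 beside CPNE8 were not called. MRPL3 was called with library size alone, at 0.25 (edgeR adjusted p = 0.00907), and in limma-voom, at 0.22 (adjusted p = 0.0331).

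The remaining positions were chromosome 20 from 35626031 to 35664956 on the minus strand for CPNE1, chromosome 3 from 131533555 to 132285410 on the minus strand for CPNE4, chromosome 6 from 36740775 to 36839444 on the minus strand for CPNE5 and chromosome 12 from 38646822 to 38907430 on the minus strand for CPNE8. CPNE3 lies on chromosome 8.

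As THUMPD1 serves the acetylation of leucine transfer RNAs, the leucine codons of the members were counted. CPNE7 had the largest leucine content, 57 of 633 codons or 9%, and the smallest share of the leucine codons UUA, UUG, CUA and CUU, 9 of 57 or 15.8%. Its coding sequence was also the richest in G and C, at 62.2%. CPNE2 had 9 of 46 such codons (19.6%) and CPNE5 10 of 47 (21.3%). CPNE1 had 18 of 47 (38.3%) and CPNE4 16 of 40 (40%). CPNE3 had 26 of 42 (61.9%) and CPNE8 30 of 42 (71.4%), with a G and C content of 41.3% in CPNE8. Codon choice and base composition go together across these 7 genes, and no relation to the fold changes was tested.

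Other calcium and membrane proteins were read from lists. In edgeR 20.9% of all genes were called, and no count from these short lists is read as a result. Of 20 synaptotagmins and extended synaptotagmins, which are C2-domain proteins of vesicle fusion and membrane contact sites, 15 were tested, and 3 were called higher and 1 lower, or 26.7% beside 20.9% of all genes. DESeq2, which gave SYT11 no adjusted p, and limma-voom, which did not call SYT11, each had 2 higher and 1 lower. Their median log2 fold change was 0.06. SYT14 had 37 and 49 counts in WT and 150 and 144 in KO, and rose by 1.52 (SE 0.25; edgeR adjusted p = 7.63e-05). ESYT1, a tether of the endoplasmic reticulum to the plasma membrane, fell by 0.30 (SE 0.08; edgeR adjusted p = 0.0112), a call lost with library size alone (adjusted p = 0.0591 in edgeR), without WT 2 (-0.24) and without KO 1 (-0.27). SYT6 and SYT11 were the other genes called higher, and were named after their values were seen.

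Of 12 annexins, which bind phospholipids through calcium without a C2 domain, 8 were tested and 0 were called in edgeR, DESeq2 and limma-voom, with a median of -0.14. At an unadjusted p under 0.05, edgeR had 1 annexin lower and 0 higher. Of 6 listed genes of the ferlin family, known for large proteins with several C2 domains, 5 were in the count table. Of these, 3 were tested and 0 were called in the same 3 tools. The 3 had a median of 0.10, with 0 at an unadjusted p under 0.05 in edgeR. Of 24 other genes from protein families with C2 domains, 15 were tested. Of these, 1 was called higher and 2 lower, or 20% beside 20.9% of all genes, with a median of -0.16. PRKCB, protein kinase C beta, lies on chromosome 16 and had 66 and 91 counts in WT and 217 and 175 in KO. PRKCB rose by 1.06 (SE 0.20; edgeR adjusted p = 0.00038). DOC2A, a calcium sensor of vesicle release on the same chromosome, had 65 and 82 counts in WT and 29 and 48 in KO, and fell by 1.18 (SE 0.34; edgeR adjusted p = 0.0124). Without KO 1, DOC2A was at -0.81 with an adjusted p of 0.197. NEDD4L, a ubiquitin ligase, fell by 0.64 (SE 0.12; edgeR adjusted p = 0.000501).

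Of 7 proteins reported to bind CPNE1 or CPNE3, 1 was called higher and 1 lower, or 28.6% beside 20.9% of all genes. Their median log2 fold change was -0.05. GNB2L1, the ribosome-bound scaffold RACK1, was at 2294 and 2297 CPM in WT and at 2813 and 2693 CPM in KO, and rose by 0.26 (SE 0.06; edgeR adjusted p = 0.00184). UBE2M, which conjugates NEDD8, was at 258 and 299 CPM in WT and at 173 and 199 CPM in KO, and fell by 0.59 (SE 0.08; edgeR adjusted p = 2.99e-06).

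The genes whose pattern over the 4 libraries was most like that of CPNE7 were found by the Euclidean distance of log2(CPM + 1) centred on each gene's mean. They were THUMPD1 at a distance of 0.0931, NEFM at 0.115, PDE3A at 0.322, PID1 at 0.327 and POTEF at 0.393. NEFM, a neurofilament subunit, had 1416 and 1944 counts in WT and 305 and 245 in KO, with a log2 fold change of -2.87. PDE3A was at -3.09 and PID1 at -3.17. POTEF, whose near-identical copies may share reads, had 42 and 59 counts in WT and 1 and 3 in KO. The pseudocount of 1 compresses the fold of a gene as low as CPNE7 in KO, and the more abundant THUMPD1, NEFM, PDE3A and PID1 had smaller fitted changes than CPNE7. The measure rests on 4 libraries and uses the same contrast that chose CPNE7.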

How the data were processed

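Per library and gene symbol, the authors deposited unnormalized whole-number counts. The submitters' processing notes name hg19, while the paper's methods name STAR and RSEM on GRCh38, another kit for depleting ribosomal RNA and more samples per genotype. Which pipeline made these counts, and whether counting used strand, is not given in the sources used here. A second deposited table holds the authors' own fold changes and p-values and was not used.

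Counts were fitted with edgeR 4.0.16 in R 4.3.3 (glmQLFit, glmQLFTest, TMM) on the 13128 genes that reached 1 CPM in 2 or more libraries. P-values were adjusted by Benjamini-Hochberg, with a threshold of 0.05. SE is the log2 fold change divided by the root of F. DESeq2 1.42.0, limma 3.58.1, other scalings and filters and leaving out each library were alternatives. The fit was tested on simulated data first. Library totals were 7875722 to 11362363 counts. The exact intervals of summed counts and the floor of 3 counts cover counting error only, without molecular identifiers. Intervals of 1.96 SE come from the edgeR fit and include the spread it estimated between libraries. Chi-square values per degree of freedom of 4.14 for the WT pair and 7.2 for the KO pair exceeded sampling noise. Such spread can be technical and cannot show separate cultures. Each library was kept as a replicate, as labelled.

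Positions, transcripts and coding sequences came from GRCh38 with GENCODE 44, which placed 12167 tested genes by symbol and 844 by a RefSeq synonym. The members and lists were chosen with earlier results of these data known. Genes named were THUMPD1, all copines, the tested genes next to each member (4 on each side of CPNE2 and CPNE7), the 5 most like CPNE7, and in each list up to 3 rises and 3 falls whose mean reached 5 CPM and whose genotypes did not overlap. A marker gene and a coding sequence are not reported here.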

Additional observations from a re-analysis of the deposited data

How the results depend on the processing

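The number of genes called was 1764 in DESeq2, 1595 at an adjusted p under 0.01, and 1620 (without KO replicate 1) to 2591 when 1 library was left out, where the lone library of a genotype was assumed to vary like the others. Deviations from the genotype mean correlated at 0.0301 between WT 1 and KO 1. With 2 libraries per genotype, that value cannot show whether the replicate numbers pair the samples. With the replicate block 3222 genes were called, beside 2748 in the main fit. Of the copines, 1 was called in every setting run except at least 10 counts in every library, where 0 were, since CPNE7 with 7 and 6 KO counts was not tested. As CPNE7 was chosen from this contrast, that count supports nothing. CPNE7 stayed between -4.19 and -3.97 where it was tested, CPNE2 between -0.35 and -0.20 with no adjusted p under 0.0542, and CPNE8 between 0.15 and 0.48. CPNE1 ranged from -0.23 (without KO replicate 1) to -0.07 (library size alone), CPNE4 from 0.68 (limma-voom) to 1.28 (without KO replicate 2) and CPNE5 from 0.08 (limma-voom) to 0.52 (without WT replicate 2), and none of these was called in any setting that gave an adjusted p. Library size alone moved the median of all genes from 0.01 to 0.09 and turned CPNE3 to 0.05, SPAG4 to 0.01, HERPUD1 to 0.02, SPG7 to 0.04 and KIF21A to 0.08 (0.02 with upper quartile factors). Leaving out 1 library turned genes near 0, with ranges of -0.11 to 0.04 for CPNE3, -0.32 to 0.28 for SPAG4, -0.29 to 0.18 for HERPUD1, -0.42 to 0.48 for PLLP, -0.14 to 0.19 for RMDN1, -0.66 to 0.48 for CNGB3, -0.31 to 0.02 for PPIL1, -0.23 to 0.01 for ANKRD11, -0.18 to 0.23 for C16orf55 and -0.16 to 0.14 for KIF21A. ANKRD11 was called without WT replicate 1 (-0.23) and MT1F without WT replicate 2 (-1.96). The causes were not tested. Depth limits CPNE4, CPNE5 and CPNE7 in KO, which rest on 23 counts or fewer per library.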
